A study of Caenorhabditis elegans with 15 samples.

Results

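The *abu* and *pqn* genes of *Caenorhabditis elegans* were followed in RNA sequencing of whole young adults of 4 mutant strains and of the wild type N2. The genes were chosen by name: every row of the count table named *abu* or *pqn* with a number, and with 10 or more counts in 3 or more libraries. This gave 69 genes, 12 *abu* and 57 *pqn*, of the 77 rows with such a name (15 *abu* and 62 *pqn*) and of 46756 rows in the table, 17400 of which passed the same count minimum. The 8 named genes below the minimum were *abu-3*, *abu-5*, *abu-9*, *pqn-16*, *pqn-57*, *pqn-76*, *pqn-78* and *pqn-79*, none with more than 14 counts in any library. *pqn-11* passed the minimum but is annotated as a pseudogene.

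The strains *nrx-1* (ok1649) and *nrx-1* (tm1961) carry deletions in the neurexin gene that affect its long alpha isoforms, and *nlg-1* (ok259) and *nlg-1* (tm474) carry deletions in the neuroligin gene, of which ok259 is described as a full knockout. Neurexin and neuroligin are adhesion proteins of the presynaptic and the postsynaptic side of neuronal contacts. The strains with ok alleles and N2 came from the Caenorhabditis Genetics Center and those with tm alleles from the National Bioresource Project of Japan. The tm1961, ok259 and tm474 strains had not been backcrossed, so that effects of the named allele and of other differences between the strains cannot be told apart. Each strain had 3 libraries from separate worm preparations of about 20000 animals grown at 20 °C on *E. coli* OP50, and the libraries held between 10152578 and 26211067 counts.

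By way of background, *abu* stands for "activated in blocked unfolded protein response", after the induction of these genes when the endoplasmic reticulum is stressed and its main response branch is missing. The genes encode secreted proteins rich in glutamine and asparagine, and many of them are known as components of the cuticle that lines the lumen of the pharynx, the feeding organ. That lining is shed and rebuilt at every molt, and the transcripts that encode it come and go with the molting cycle. *pqn* stands for a prion-like domain rich in glutamine (Q) and asparagine (N). The name describes composition alone, and the genes range from pharyngeal cuticle proteins to proteins of the nucleus and cytoplasm of many cell types, such as *pqn-59*, which encodes a protein of stress granules, and *pqn-85*, which encodes the worm's cohesin loading factor.

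Levels are given in CPM, the count divided by the library total in units of 1e+06 counts, with each total scaled by its TMM factor, a factor that sets the bulk of genes equal between libraries. All animals were whole worms, so fewer cells of a type and less RNA per cell cannot be told apart. Replicates of one strain differed widely in markers of stage. Summed yolk protein transcripts (*vit-1* to *vit-6*) reached 120200, 164300 and 147500 CPM in replicate 1 of *nrx-1* (ok1649), *nlg-1* (ok259) and *nlg-1* (tm474), against 8836 to 19970 CPM in N2 and 356 to 8268 CPM in the other mutant libraries. Counts on noncoding genes made up 2.99% to 30.3% of a mutant library, against 4.03% to 5.50% of an N2 library. As a check of the genotypes, *nlg-1* stood at 8.15 to 10.2 CPM in *nlg-1* (ok259) and 1.34 to 6.76 CPM in *nlg-1* (tm474), against 11.1 to 18.0 CPM in N2, and *nrx-1* at 6.59 to 8.81 CPM in *nrx-1* (ok1649) and 4.02 to 7.90 CPM in *nrx-1* (tm1961), against 9.71 to 11.8 CPM in N2. In both genes every library of the deleted strain lay below every N2 library, and neither gene was called by edgeR. *nlg-1* was also as low as 2.79 CPM in *nrx-1* (ok1649) and 2.92 CPM in *nrx-1* (tm1961), so its level was not particular to the *nlg-1* strains. Likewise *nrx-1* ranged from 7.55 to 10.3 CPM in *nlg-1* (ok259) and from 6.08 to 11.6 CPM in *nlg-1* (tm474). Low *nrx-1* levels were thus not particular to the *nrx-1* strains. The median *nlg-1* level in *nlg-1* (ok259) was 8.87 CPM, against 14.9 CPM in N2. It was above the medians of 5.12 CPM in *nrx-1* (ok1649) and 3.52 CPM in *nrx-1* (tm1961). Counts over the whole gene do not separate the deleted part from the rest, so this check does not bear out a full knockout in ok259.

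The 12 *abu* genes were of modest and unequal abundance. Per kilobase of exon, and averaged over the 15 libraries, *abu-14* was the most abundant with 48.3 CPM, followed by *abu-13* with 19.1, *abu-11* with 16.3, *abu-8* with 15.0, *abu-1* with 12.4, *abu-15* with 10.99 and *abu-6* with 10.01 CPM. Lower down came *abu-12* with 8.76, *abu-7* with 8.73, *abu-10* with 7.25, *abu-4* with 1.56 and *abu-2* with 0.261 CPM per kilobase. The order held only within wide replicate ranges, described next, and it was another one in N2 alone, where *abu-14* (124 CPM per kilobase) was followed by *abu-8* (44.9) and *abu-11* (42.7), and *abu-13* (26.8) came after 6 other genes.

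All 12 *abu* genes had their highest strain mean in N2. The lowest strain mean was that of *nlg-1* (ok259) for 8 of them, of *nrx-1* (ok1649) for 3 and of *nrx-1* (tm1961) for 1. Of the 57 *pqn* genes, 26 had their highest mean in N2 and 15 in *nlg-1* (tm474), and 32 had their lowest mean in *nrx-1* (tm1961). Means of 3 libraries describe these genes poorly, however, because *abu* levels differed widely between replicates of one strain. Between the highest and the lowest replicate of *nrx-1* (tm1961) the median *abu* gene differed 21.3-fold, the median *pqn* gene 2.41-fold and the median of 15957 tested genes 2.12-fold. In *nlg-1* (tm474) these spreads were 17.4-fold, 3.58-fold and 2.96-fold. The other strains had narrower *abu* spreads: 3.67-fold in *nlg-1* (ok259), against 3.14-fold for *pqn*, and 3.26-fold in *nrx-1* (ok1649), against 3.49-fold for *pqn*. N2 itself had 4.68-fold for *abu*, 1.66-fold for *pqn* and 1.56-fold over all tested genes.

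**Figure D1:**
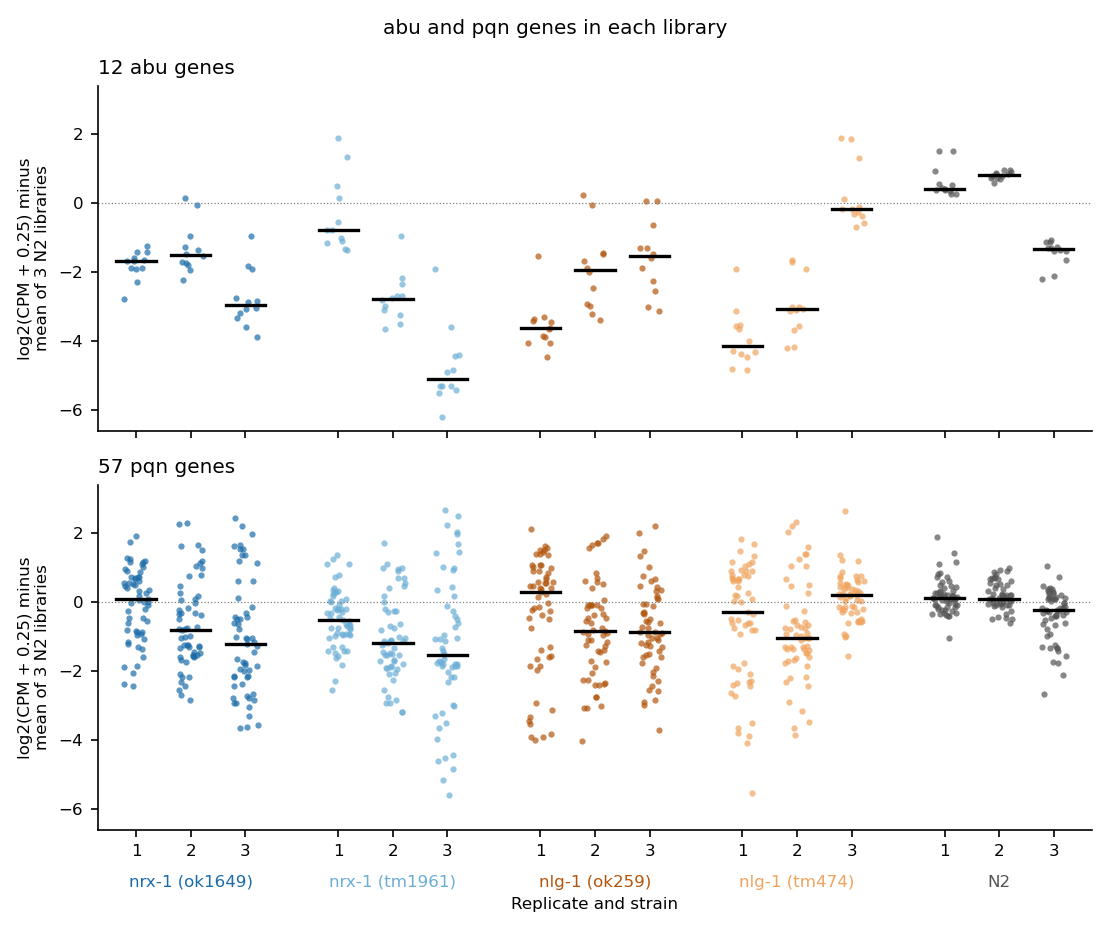
Levels of the 12 *abu* genes (upper panel) and the 57 *pqn* genes (lower panel) in each of the 15 libraries, as log2(CPM + 0.25) minus the gene's mean over the 3 N2 libraries. Each point is 1 gene, the black bar is the median over the genes, and the columns are replicates 1 to 3 of each strain. The *abu* median lies between -5.10 and -0.17 in the mutant libraries and at 0.43, 0.82 and -1.34 in the N2 libraries.

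The library-to-library course was much the same in most *abu* genes. Summed over the 12 genes, *abu* transcripts came to 129, 213 and 60.9 CPM in *nrx-1* (ok1649), 403, 61.6 and 9.63 CPM in *nrx-1* (tm1961), 29.8, 145 and 167 CPM in *nlg-1* (ok259) and 22.7, 55.9 and 568 CPM in *nlg-1* (tm474), against 762, 793 and 166 CPM in N2, for replicates 1, 2 and 3. The 2 highest sums were those of N2 replicates 2 and 1, the third was *nlg-1* (tm474) replicate 3 and the fourth *nrx-1* (tm1961) replicate 1, while N2 replicate 3 ranked 7th of 15. Single genes mostly followed the sum, least closely in *nrx-1* (ok1649), where replicate 2 was the highest for 6 genes and replicate 1 for 5. N2 replicate 3 was the lowest N2 library for 12 of 12 *abu* genes. *nrx-1* (tm1961) replicate 1 was the highest and replicate 3 the lowest library of that strain for all 12. In *nlg-1* (tm474) replicate 3 was the highest for 12 and replicate 1 the lowest for 11, and in *nlg-1* (ok259) replicate 1 was the lowest for 11. In each mutant strain 1 library lay above the N2 replicate 3 sum and the other libraries below it, so that every mutant range overlapped that of N2, and the overlap came from N2 replicate 3 alone.

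*abu-14* was the most abundant *abu* gene. It stood at 36.8, 70.2 and 18.4 CPM in *nrx-1* (ok1649), 92.4, 20.6 and 2.73 CPM in *nrx-1* (tm1961), 5.95, 33.6 and 44.9 CPM in *nlg-1* (ok259) and 5.92, 16.5 and 148 CPM in *nlg-1* (tm474), against 256, 222 and 43.0 CPM in N2. The first 2 N2 libraries lay above every mutant library and the third among them. The fitted log2 fold change against N2 was -2.14 ± 0.80 for *nrx-1* (ok1649), with the SE from 3 against 3 libraries. It was -2.14 ± 1.16 for *nrx-1* (tm1961). For the *nlg-1* strains it was -2.81 ± 0.94 with allele ok259 and -1.65 ± 1.10 with allele tm474. By edgeR's quasi-likelihood test with Benjamini-Hochberg adjustment over all genes tested, none passed the threshold, with adjusted p of 0.231, 0.223, 0.300 and 0.712.

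*abu-8* separated from N2 in more strains. Its levels were 18.7, 16.4 and 3.62 CPM in *nrx-1* (ok1649), 21.98, 5.86 and 0.527 CPM in *nrx-1* (tm1961), 5.01, 7.05 and 6.87 CPM in *nlg-1* (ok259) and 3.36, 2.96 and 44.5 CPM in *nlg-1* (tm474), against 74.9, 107 and 23.1 CPM in N2. All libraries of the first 3 strains lay below all 3 N2 libraries, and in *nlg-1* (tm474) replicate 3 did not. The log2 fold change was -2.46 ± 0.79, -2.82 ± 1.15, -3.66 ± 0.64 and -2.04 ± 1.05 in the 4 strains in this order, with edgeR adjusted p of 0.216, 0.135, 0.175 and 0.618. The neighbouring *abu-6*, *abu-7* and *abu-15* gave log2 fold changes between -3.55 and -1.86, and *abu-6* and *abu-15* separated from N2 in the same 3 strains.

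*abu-12* and *abu-13* had the log2 fold changes nearest to 0 of the *abu* genes tested in each strain. *abu-13* stood at 4.45, 35.9 and 8.43 CPM in *nrx-1* (ok1649), 118, 6.97 and 1.29 CPM in *nrx-1* (tm1961), 2.90, 38.2 and 33.2 CPM in *nlg-1* (ok259) and 2.56, 9.64 and 117 CPM in *nlg-1* (tm474), against 92.8, 47.9 and 7.26 CPM in N2. Libraries of every strain thus lay on both sides of the lowest N2 library, as they did for *abu-14*. The fitted log2 fold changes of *abu-13* were -1.72 ± 0.98, -0.19 ± 1.46, -1.17 ± 1.08 and -0.22 ± 1.25 in the 4 strains, and those of *abu-12* -1.81 ± 0.92, -0.73 ± 1.41, -1.34 ± 1.07 and -0.21 ± 1.27. *abu-12* has 13 exon blocks and *abu-13* has 7, as has *abu-10*, against a median of 2.5 in the family.

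*abu-2* and *abu-4* were the rare members. *abu-4* stood at 0.875, 0.834 and 0.178 CPM in *nrx-1* (ok1649), 4.79, 0.301 and 0.0479 CPM in *nrx-1* (tm1961), 0, 1.05 and 1.20 CPM in *nlg-1* (ok259) and 0.160, 0.179 and 3.08 CPM in *nlg-1* (tm474), against 5.03, 5.98 and 1.14 CPM in N2. *abu-2* had no count in *nrx-1* (tm1961) replicate 3 nor in *nlg-1* (tm474) replicates 1 and 2, where 3 counts, the limit a count of 0 allows, would be 0.144, 0.480 and 0.134 CPM. Its highest level, 2.08 CPM, was in *nlg-1* (tm474) replicate 3, against 1.10, 1.46 and 0.107 CPM in N2. These limits cover counting error only. *abu-2* was too low to be tested in *nrx-1* (ok1649) and *nlg-1* (ok259).

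The first comparison, of *nrx-1* (ok1649) with N2, gave negative log2 fold changes for 11 of 11 *abu* genes tested, between -2.75 (*abu-4*) and -1.72 (*abu-13*), with a median of -2.26. The median of 52 *pqn* genes was -0.41, with 38 negative, and that of all 15957 genes tested was 0.16. A gene was called at an adjusted p under 0.05 with an absolute log2 fold change of more than 1. edgeR called 0 members, against 0.0251% of all genes, and the smallest adjusted p among members was 0.212. At an unadjusted p below 0.05, 9 of 11 *abu* and 9 of 52 *pqn* genes were lower, against 5.11% of all genes, and 0 *abu* and 3 *pqn* genes (*pqn-60*, *pqn-68* and *pqn-92*) were higher, against 13.0%. For 7 of 11 *abu* genes (*abu-15*, *abu-10*, *abu-8*, *abu-7*, *abu-6*, *abu-4* and *abu-1*) and 6 *pqn* genes all 3 mutant libraries lay below all 3 N2 libraries, against 7.41% of all genes, and for 6 *pqn* genes they lay above, against 15.9%. DESeq2 on the same libraries called 9 members, all lower, against 1.53% of genes called lower and 2.44% called higher. They were *pqn-63*, *pqn-54*, *abu-11* and, of the 7 *abu* genes just listed, all but *abu-15*. Without *nrx-1* (ok1649) replicate 1, the library with the high yolk level, edgeR called 34 members lower, 8 of them *abu*, and 6 higher, against 24.6% and 21.2% of all genes. The *abu* median was -2.52 and the *pqn* median -1.37 in that fit, so that the families lay closer together than with all libraries. Without the filter on low counts edgeR called 13 members, 8 of them *abu*, all lower, against 1.09% of all genes. That share is over 28117 genes, among them low-count genes that the filter leaves out. All members met a count minimum, so this background is not a like one. The same holds for the shares without the filter in the other strains.

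In *nrx-1* (tm1961) 12 of 12 *abu* genes were tested and had negative log2 fold changes, between -2.82 (*abu-8*) and -0.19 (*abu-13*), with a median of -2.26. The last of these changes sign when library totals alone are used for scaling. Without N2 replicate 1, 10 of the 12 *abu* genes were negative. The *pqn* median was -1.01 over 56 genes, 43 of them negative, and the median of all 16268 genes was 0.11. edgeR called 0 members, as it called 0 of all genes, and the smallest adjusted p among members was 0.0745. At an unadjusted p below 0.05, 4 *abu* genes (*abu-6*, *abu-7*, *abu-8* and *abu-15*) and 22 *pqn* genes were lower, against 15.6% of all genes, and 4 *pqn* genes were higher, against 18.6%. All mutant libraries lay below N2 for 3 *abu* and 23 *pqn* genes, against 21.1% of all genes, and above N2 for 7 *pqn* genes, against 18.0%. The 3 of 12 separated *abu* genes thus made up a share near the background in this strain, while the 23 of 56 *pqn* genes made up 41.1%. DESeq2 called 21 members lower, 5 of them *abu* (*abu-15*, *abu-10*, *abu-8*, *abu-7* and *abu-6*), and 2 higher, against 8.17% and 8.82% of genes.

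Deviations of same-numbered *nrx-1* (tm1961) and N2 libraries correlated at 0.691, 0.183 and 0.646 for replicates 1, 2 and 3. The labels do not say that a number marks a shared batch, so this pairing is a hint from the data alone. Adding the replicate number as a blocking term changed the call. With the block, edgeR called 38 members, 10 of them *abu*, against 0 without it. The pairing was read from these same counts, so the adjusted p-values with the block may be too small. All 12 *abu* genes were lowest in replicate 3 of both strains, so they are part of that correlation. 36 of the 38 were lower, against 15.5% of all genes, and 2 were higher (*pqn-24* and *pqn-68*), against 16.0%. *abu-15* fell by 3.07 ± 0.49 on the log2 scale (adjusted p = 0.00905, edgeR with the replicate block), *abu-8* by 3.66 ± 0.63 (adjusted p = 0.00905) and *abu-14* by 2.92 ± 0.49 (adjusted p = 0.00905). *abu-2* and *abu-13* were not called, with log2 fold changes of -1.60 ± 0.72 (adjusted p = 0.106) and -1.61 ± 0.60 (adjusted p = 0.0584). The *abu* median was -3.05 and the *pqn* median -1.07 with the block. Without *nrx-1* (tm1961) replicate 1, edgeR without the block called 44 members lower, 11 of them *abu*, and 5 higher, against 17.6% and 18.9% of all genes, with an *abu* median of -4.01 and a *pqn* median of -1.40. Without the filter on low counts edgeR called 0 members, against 0.0278% of all genes.

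In *nlg-1* (ok259) 11 of 11 *abu* genes tested had negative log2 fold changes between -3.93 (*abu-10*) and -1.17 (*abu-13*), with a median of -2.81. The *pqn* median was -0.65 over 54 genes, 44 of them negative, and the median of all 15905 genes was 0.03. *abu-10* stood at 1.74, 2.15 and 2.61 CPM in *nlg-1* (ok259) and at 30.1, 43.0 and 11.9 CPM in N2, and its log2 fold change of -3.93 ± 0.60 had an edgeR adjusted p of 0.175. edgeR called 0 members and 0 of all genes, with a smallest adjusted p among members of 0.175. At an unadjusted p below 0.05, 8 of 11 *abu* and 13 of 54 *pqn* genes were lower, against 7.76% of all genes, and 2 *pqn* genes (*pqn-24* and *pqn-68*) were higher, against 6.44%. For 7 *abu* genes (*abu-15*, *abu-11*, *abu-10*, *abu-8*, *abu-7*, *abu-6* and *abu-1*) and 9 *pqn* genes all mutant libraries lay below N2, against 7.49% of all genes, and for 4 *pqn* genes above it, against 15.8%. DESeq2 called 13 members lower, 7 of them *abu*, and 1 higher (*pqn-68*), against 2.51% and 1.16% of genes. The 7 were *abu-14* and all of the separated *abu* genes but *abu-1*. Without *nlg-1* (ok259) replicate 1, again the library with the high yolk level, edgeR called 33 members lower, 8 of them *abu*, and 4 higher, against 22.9% and 19.4% of all genes. The *abu* median was -2.29 and the *pqn* median -1.15 in that fit, so that the families lay closer together than with all libraries. Without the filter on low counts edgeR called 1 member, *abu-10*, against 0.0316% of all genes.

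In *nlg-1* (tm474) no *abu* gene separated from N2. All 12 log2 fold changes were negative, between -2.32 (*abu-10*) and -0.21 (*abu-12*), with a median of -1.85, against a *pqn* median of -0.28 over 54 genes, 32 of them negative, and a median of 0.08 over all 15947 genes. Of the 12 *abu* genes, 9 were negative without *nlg-1* (tm474) replicate 1 and 9 without its replicate 2. Without N2 replicate 1, 10 of the 12 were negative. edgeR called 0 members and 0 of all genes, and DESeq2 also called 0 members, against 0.178% of genes lower and 0.127% higher. At an unadjusted p below 0.05, 0 *abu* and 4 *pqn* genes were lower, against 3.21% of all genes, and 1 *pqn* gene (*pqn-60*) was higher, against 5.20%. All mutant libraries lay below N2 for 0 *abu* and 6 *pqn* genes, against 6.85% of all genes, and above N2 for 2 *pqn* genes (*pqn-24* and *pqn-83*), against 8.20%. *nlg-1* (tm474) replicate 3 kept the *abu* genes from separating. It was below the lowest N2 library for 0 of 12 *abu* genes, whereas replicate 1 was below it for 12 and replicate 2 for 10. Without replicate 3 the *abu* median was -4.15 and the *pqn* median -0.45, and edgeR still called 0 members. Without the filter on low counts it called 4 members (*abu-1*, *abu-8*, *abu-10* and *pqn-54*), against 0.634% of all genes.

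**Figure D2:**
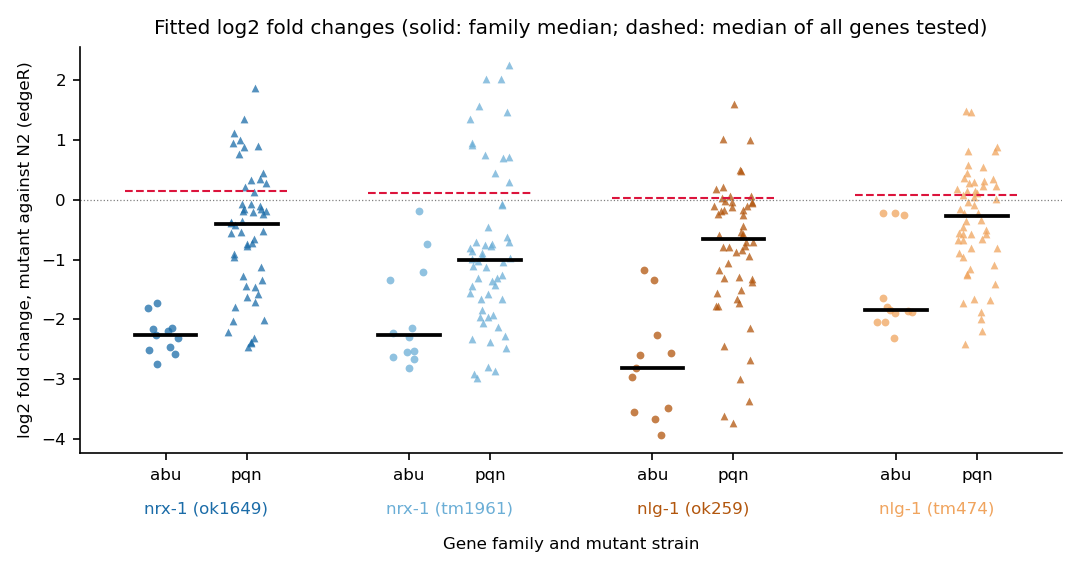
Fitted log2 fold changes of the *abu* genes (circles) and *pqn* genes (triangles) in each mutant strain against N2, from edgeR on 3 against 3 libraries. Solid bars are the medians of each family and dashed lines the median of all genes tested, which lies between 0.03 and 0.16. The *abu* medians of -2.26, -2.26, -2.81 and -1.85 lie below the *pqn* medians of -0.41, -1.01, -0.65 and -0.28 in the 4 strains.

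The 4 comparisons share the same 3 N2 libraries, so that they are not independent of one another, and the low *abu* level of N2 replicate 3 enters all of them. No member passed a test over several strains. In a joint F test of edgeR over the 5 strains, 0 of 69 members were called, against 0.0402% of all 17395 genes, with a smallest adjusted p among members of 0.924 and 3 *abu* and 5 *pqn* genes at an unadjusted p below 0.05, against 4.71% of all genes. DESeq2's likelihood ratio test also called 0 members, against 0.638% of genes, with 5 *abu* and 7 *pqn* genes at an unadjusted p below 0.05, against 4.88%. Between the 2 alleles of a gene edgeR again called 0 members, against 0.0345% of all genes for either gene, and 0 members had an unadjusted p below 0.05. The median *abu* difference was 0.10 for *nrx-1* (ok1649) minus *nrx-1* (tm1961) and -0.999 for *nlg-1* (ok259) minus *nlg-1* (tm474), and the *pqn* medians were 0.37 and -0.11. These tests do not show that the alleles act alike, since the difference of *abu-1* between the *nlg-1* alleles, for example, was -0.05 with a standard error of 1.08 on the log2 scale.

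The *pqn* genes ranged from near the *abu* course to far from it. As a measure of likeness, chosen after the values had been seen, the mean absolute log2 distance of each gene from the median *abu* course over the 15 libraries was taken. It ran from 0.13 in *abu-11* to 1.25 in *abu-13* within the *abu* family, and 14 of 57 *pqn* genes lay no farther than *abu-13*. The nearest were *pqn-2* at 0.24, *pqn-63* at 0.25, *pqn-54* and *pqn-74* at 0.39 and *pqn-13* at 0.63. After these came *pqn-29*, *pqn-71*, *pqn-72*, *pqn-35*, *pqn-36*, *pqn-26*, *pqn-32*, *pqn-90* and *pqn-67*, and the next gene, *pqn-48*, stood at 1.30 just outside. With *pqn-67* at 1.23, the distances ran through this limit without a gap. In *pqn-71* and *pqn-72* N2 replicate 3 (2.77 and 38.4 CPM) lay beside N2 replicate 1 (2.61 and 38.9 CPM), unlike in the *abu* genes. The libraries share their depth and scaling, and the distance is a description without a test.

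**Figure D3:**
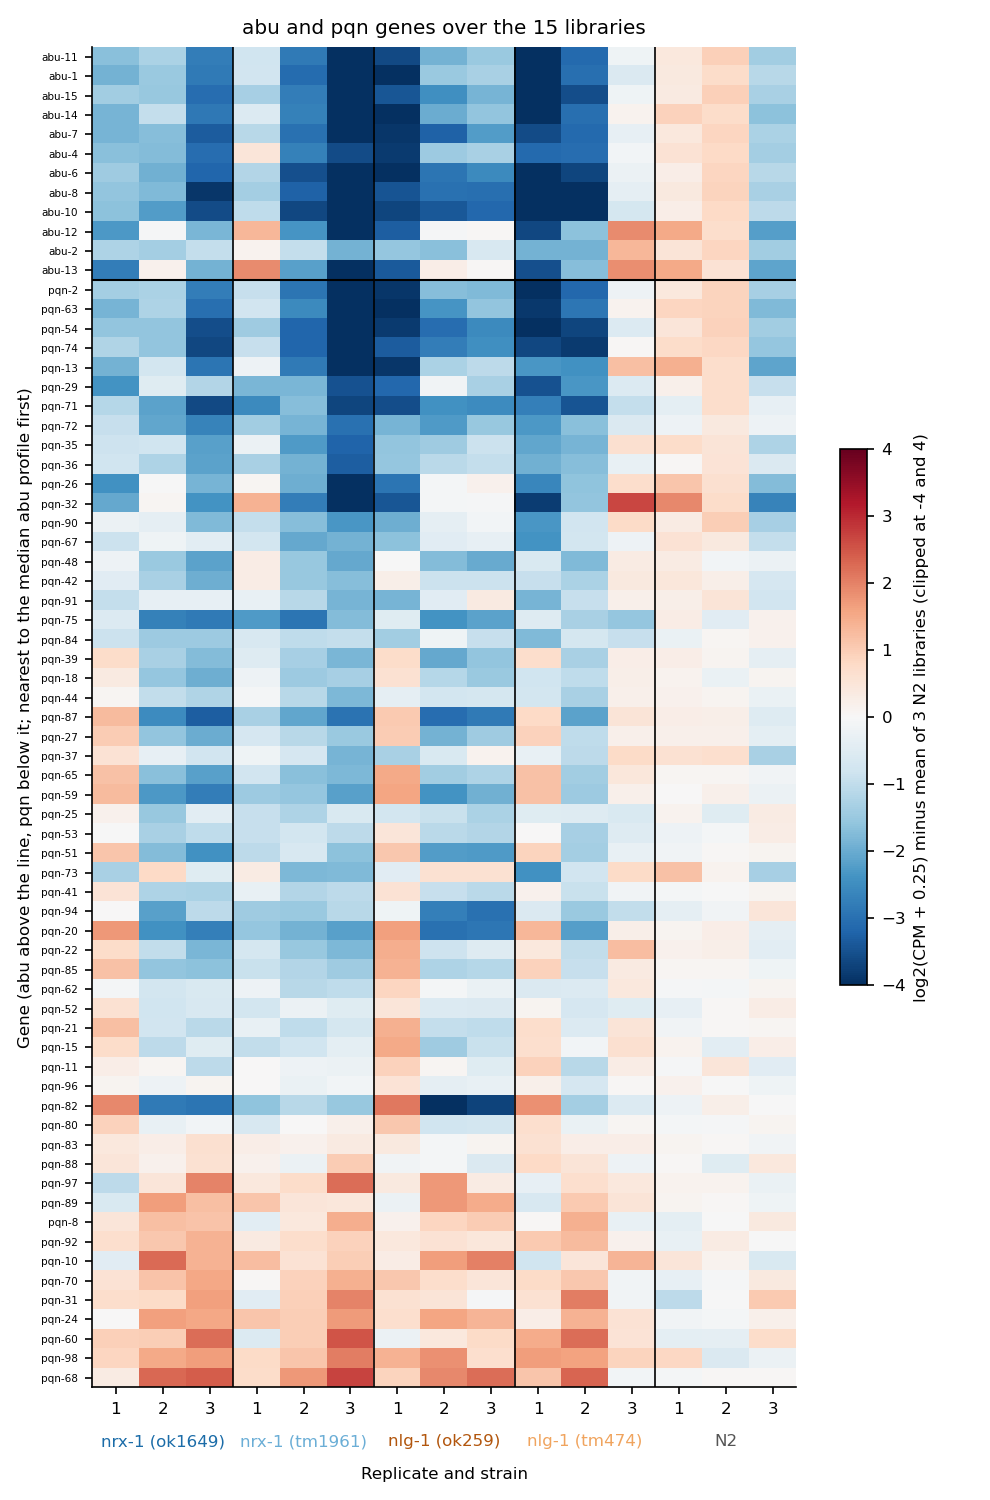
Levels of the 69 genes over the 15 libraries, as log2(CPM + 0.25) minus the gene's mean over the 3 N2 libraries, with blue for lower and red for higher and the colours clipped at -4 and 4. Rows are ordered within each family by their distance from the median *abu* course, from 0.13 to 1.25 for *abu* and from 0.24 to 3.37 for *pqn*. The uppermost *pqn* rows repeat the *abu* columns, and the lowest rows are red in most mutant libraries.

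*pqn-54* and *pqn-74* are examples of the genes near the *abu* course. *pqn-54* stood at 13.6, 13.8 and 3.32 CPM in *nrx-1* (ok1649), 15.3, 4.36 and 0.623 CPM in *nrx-1* (tm1961), 2.69, 4.76 and 6.82 CPM in *nlg-1* (ok259) and 2.24, 3.05 and 28.4 CPM in *nlg-1* (tm474), against 57.6, 78.8 and 15.6 CPM in N2. As with *abu-8*, all libraries but *nlg-1* (tm474) replicate 3 lay below all N2 libraries. Its log2 fold changes were -2.37 ± 0.77, -2.87 ± 1.08, -3.62 ± 0.72 and -2.20 ± 1.00 in the 4 strains, with edgeR adjusted p of 0.216, 0.115, 0.183 and 0.597. *pqn-74* stood higher, at 41.3, 32.0 and 7.36 CPM in *nrx-1* (ok1649) and 157, 170 and 32.1 CPM in N2, and gave log2 fold changes between -3.37 and -1.72. *pqn-2* gave -2.02 to -2.68 in the 3 strains other than *nlg-1* (tm474), where it was at -1.88, and *pqn-63* gave -3.003 to -1.66 over the 4. *pqn-29*, a rare gene with no count in *nrx-1* (tm1961) replicate 3 and *nlg-1* (tm474) replicate 1, gave -1.58 ± 0.71, -2.92 ± 0.97, -1.56 ± 0.98 and -1.99 ± 1.02. Negative fold changes in all 4 strains, which 13 of the 14 genes had, go with the choice by the *abu* course, and 18 of the 38 other *pqn* genes tested in all 4 strains had them too. The 14 genes had a median exon length of 1812 bases, nearer to the 1930 bases of the other *pqn* genes than to the 1405 bases of the *abu* genes, and 5.5 exon blocks, against 8 in the other *pqn* genes and 2.5 in the *abu* genes.

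Other genes near the *abu* course overlapped N2 in every strain, as *abu-12*, *abu-13* and *abu-14* did, among them *pqn-32* and *pqn-26*. *pqn-32* stood at 11.3, 50.9 and 8.96 CPM in *nrx-1* (ok1649), 125, 6.87 and 1.87 CPM in *nrx-1* (tm1961), 4.21, 45.2 and 46.0 CPM in *nlg-1* (ok259) and 3.20, 15.8 and 303 CPM in *nlg-1* (tm474), against 180, 80.5 and 7.37 CPM in N2. Its 143-fold range over the 15 libraries was the widest of all 69 genes, against 138-fold in *abu-8* and 9.32-fold in *abu-2* at the ends of the *abu* family. The log2 fold changes of *pqn-32* were -2.02 ± 1.07, -0.97 ± 1.52, -1.66 ± 1.17 and 0.23 ± 1.44. This pair was singled out after the values had been seen.

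3 *pqn* genes, *pqn-71*, *pqn-72* and *pqn-75*, lay below all N2 libraries in every library of all 4 mutant strains, out of 52 tested in all 4 and against 2.19% of all genes. No *abu* gene did. *pqn-71* was rare, at 1.46, 0.596 and 0.0593 CPM in *nrx-1* (ok1649), 0.395, 0.905 and 0.0479 CPM in *nrx-1* (tm1961), 0.0726, 0.458 and 0.401 CPM in *nlg-1* (ok259) and 0.320, 0.0897 and 1.68 CPM in *nlg-1* (tm474), against 2.61, 5.89 and 2.77 CPM in N2. Its mean log2 fold change over the 4 strains, -2.90, was the lowest of the *pqn* genes tested in all 4. Unlike for the *abu* genes, N2 replicate 3 was not set apart. *pqn-72* stood at 23.3, 10.4 and 6.82 CPM in *nrx-1* (ok1649), 16.7, 12.0 and 5.36 CPM in *nrx-1* (tm1961), 12.2, 9.06 and 15.3 CPM in *nlg-1* (ok259) and 8.96, 13.9 and 30.0 CPM in *nlg-1* (tm474), against 38.9, 59.1 and 38.4 CPM in N2. Its log2 fold changes were -1.80 ± 0.59, -1.96 ± 0.47, -2.14 ± 0.42 and -1.40 ± 0.54, with edgeR adjusted p of 0.216, 0.0745, 0.179 and 0.588. *pqn-75*, known from the pharyngeal gland cells, stood at 14.7, 3.10 and 2.79 CPM in *nrx-1* (ok1649), 4.25, 2.65 and 6.32 CPM in *nrx-1* (tm1961), 15.2, 3.94 and 4.66 CPM in *nlg-1* (ok259) and 15.0, 8.61 and 7.16 CPM in *nlg-1* (tm474), against 26.4, 15.7 and 24.1 CPM in N2. The separation of *pqn-75* from N2 was narrow, since its highest mutant libraries nearly reached N2 replicate 2. *pqn-72* and *pqn-75* were named after their values had been seen, and *pqn-75* overlaps 2 annotated genes on the opposite strand.

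**Figure D4:**
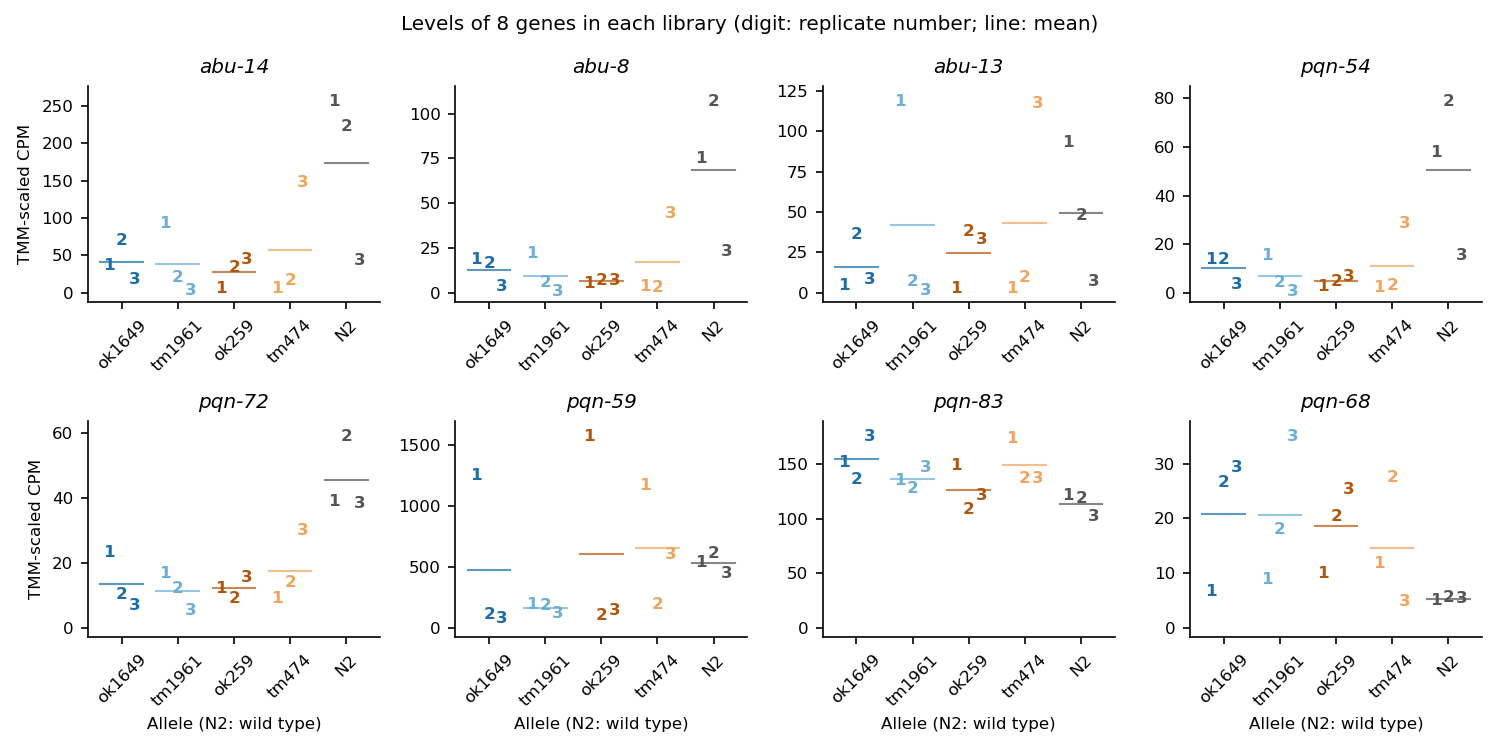
Levels of 8 genes in TMM-scaled CPM on linear axes. Digits mark replicates 1 to 3 of each strain and lines the strain means. *abu-14*, *abu-8* and *pqn-54* are low in most mutant libraries with N2 replicate 3 near them, *abu-13* overlaps N2 throughout, *pqn-72* lies at 5.36 to 30.0 CPM in the mutants, against 38.4 to 59.1 CPM in N2, *pqn-59* is highest in replicate 1 of 3 strains, *pqn-83* spans 102 to 176 CPM in all libraries, and *pqn-68* lies at 4.89 to 5.43 CPM in N2 and higher in 11 of 12 mutant libraries.

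At the other end stood *pqn* genes with higher levels in the mutants. *pqn-68* was at 6.64, 26.5 and 29.3 CPM in *nrx-1* (ok1649), 8.89, 17.9 and 35.0 CPM in *nrx-1* (tm1961), 9.95, 20.4 and 25.3 CPM in *nlg-1* (ok259) and 11.7, 27.5 and 4.80 CPM in *nlg-1* (tm474), against 4.89, 5.43 and 5.34 CPM in N2. Only *nlg-1* (tm474) replicate 3, the library of high *abu* level, was not above N2. The log2 fold changes were 1.87 ± 0.56, 2.02 ± 0.51, 1.61 ± 0.49 and 1.47 ± 0.67, with edgeR adjusted p of 0.212, 0.0747, 0.269 and 0.597. *pqn-24* had 23.6 to 38.8 CPM in *nrx-1* (tm1961), 18.9 to 35.6 CPM in *nlg-1* (ok259) and 14.2 to 31.7 CPM in *nlg-1* (tm474), all above the 10.8 to 13.7 CPM of N2. In *nrx-1* (ok1649) it had 12.0, 37.2 and 34.8 CPM, with replicate 1 inside the N2 range. *pqn-60*, *pqn-89*, *pqn-70* and *pqn-8* completed the 6 genes of highest mean log2 fold change, from 0.68 in *pqn-8* to 1.75 in *pqn-68*. In all, 7 of the 52 *pqn* genes tested in all 4 strains were positive in all 4 and 31 were negative in all 4. The 4 comparisons share the N2 libraries, so these agreements of sign are not independent. *pqn-68* and its neighbour *pqn-67* lie within 28781 bases of each other on chromosome V and moved apart, with *pqn-67* negative in all 4 strains.

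The most abundant *pqn* genes per kilobase were *pqn-59* with 210 CPM, *pqn-52* with 92.4, *pqn-83* with 73.1, *pqn-96* with 56.0, *pqn-70* with 52.8 and *pqn-53* with 45.5 CPM over the 15 libraries, all but the last above *abu-14*. *pqn-83* was the steadiest member, with a 1.72-fold range over the 15 libraries, and stood at 151, 136 and 176 CPM in *nrx-1* (ok1649) and 122, 118 and 102 CPM in N2. *pqn-96* ranged 2.34-fold and *pqn-52* 2.62-fold. The log2 fold changes of these 3 genes lay between -0.46 and 0.35 in the 4 strains.

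*pqn-59* went another way. It stood at 1249, 106 and 76.2 CPM in *nrx-1* (ok1649), 191, 181 and 117 CPM in *nrx-1* (tm1961), 1575, 99.2 and 140 CPM in *nlg-1* (ok259) and 1171, 190 and 600 CPM in *nlg-1* (tm474), against 535, 610 and 443 CPM in N2. Replicate 1 of 3 strains, the libraries of high yolk level, lay above N2, and of the other mutant libraries all but *nlg-1* (tm474) replicate 3 lay below it. In all of these 3 libraries 19 of 57 *pqn* genes lay above the highest N2 library, near the background of 33.6% of all genes, and 0 of 12 *abu* genes did. Among the 19 were *pqn-20* with 237 to 316 CPM in the 3 libraries, against 73.4 to 112 CPM in N2, *pqn-82* with 30.4 to 36.9 CPM, against 7.14 to 9.77 CPM in N2, *pqn-87* with 499 to 700 CPM, against 203 to 346 CPM in N2, and *pqn-85* with 210 to 293 CPM, against 99.3 to 118 CPM in N2. Transcripts of 10 oocyte and eggshell genes summed to 9154, 12130 and 9709 CPM in the same 3 libraries, against 1506 to 2666 CPM in N2 and 118 to 1243 CPM in the other mutant libraries. Their part in the *pqn* levels was not tested. The 3 libraries and these genes were singled out after the values had been seen.

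Coordinates are those of the Ensembl annotation of WBcel235. Of the 12 *abu* genes 6 are on chromosome V, against 15 of the 57 *pqn* genes. *abu-15*, *abu-6*, *abu-7* and *abu-8* stand in a run between 5158602 and 5194608, *abu-15* on the forward strand and the other 3 on the reverse strand. *abu-1* (10380340 to 10381826, reverse strand) and *pqn-2* (10382442 to 10384063, forward strand) are neighbours that point away from each other, and *pqn-2* was the *pqn* gene of the nearest course. The *pqn-2* levels of 9.99, 10.7 and 3.62 CPM in *nrx-1* (ok1649), against 35.0, 48.9 and 10.3 CPM in N2, stood beside *abu-1* levels of 10.5, 14.2 and 5.40 CPM in *nrx-1* (ok1649), against 52.2, 66.3 and 18.3 CPM in N2. *abu-11* and *pqn-85*, both on chromosome II within 71155 bases, did not share a course, with distances of 0.13 and 1.72. 5 of the 12 *abu* genes overlap an annotated gene on the opposite strand (*abu-1*, *abu-2*, *abu-4*, *abu-6* and *abu-13*), and since the strand setting of the counting is not given in the sources used here, their counts may include reads of that gene. Reads that map to several close copies were not counted, so the levels of close relatives within the *abu* family are uncertain.

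Markers of the molt and of the pharynx were read beside the *abu* genes. The molting list of 26 genes (cuticle proteins, proteases and regulators such as *nhr-23*) summed to 447 to 2088 CPM in *nrx-1* (ok1649), 246 to 3207 CPM in *nrx-1* (tm1961), 471 to 2026 CPM in *nlg-1* (ok259) and 515 to 7063 CPM in *nlg-1* (tm474), against 346 to 3194 CPM in N2, with 0 of the 26 genes at 0 in any strain. Its highest sums were those of *nlg-1* (tm474) replicate 3, *nrx-1* (tm1961) replicate 1 and N2 replicate 1, which were also among the 4 highest *abu* libraries, and its lowest sum was that of *nrx-1* (tm1961) replicate 3, the lowest *abu* library. The median molting gene was at 2.57, 1.66 and 1.78 in the first 3 and at -3.08 in the last on the log2 scale against the N2 mean, and at -2.08 in N2 replicate 3, the lowest *abu* library of N2. The *abu* medians in the same libraries were -0.17, -0.78, 0.43, -5.10 and -1.34. *nlg-1* (ok259) replicate 2 had a molting median of 0.78 with an *abu* median of -1.94, and *nrx-1* (ok1649) replicate 2 had 0.76 with -1.50, against 0.23 with 0.82 in N2 replicate 2. In the 4 comparisons edgeR called 0 of the 26 molting genes, with medians of -0.75, -0.32, -0.60 and 0.67. The part of the molting stage in the *abu* levels was not tested.

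**Figure D5:**
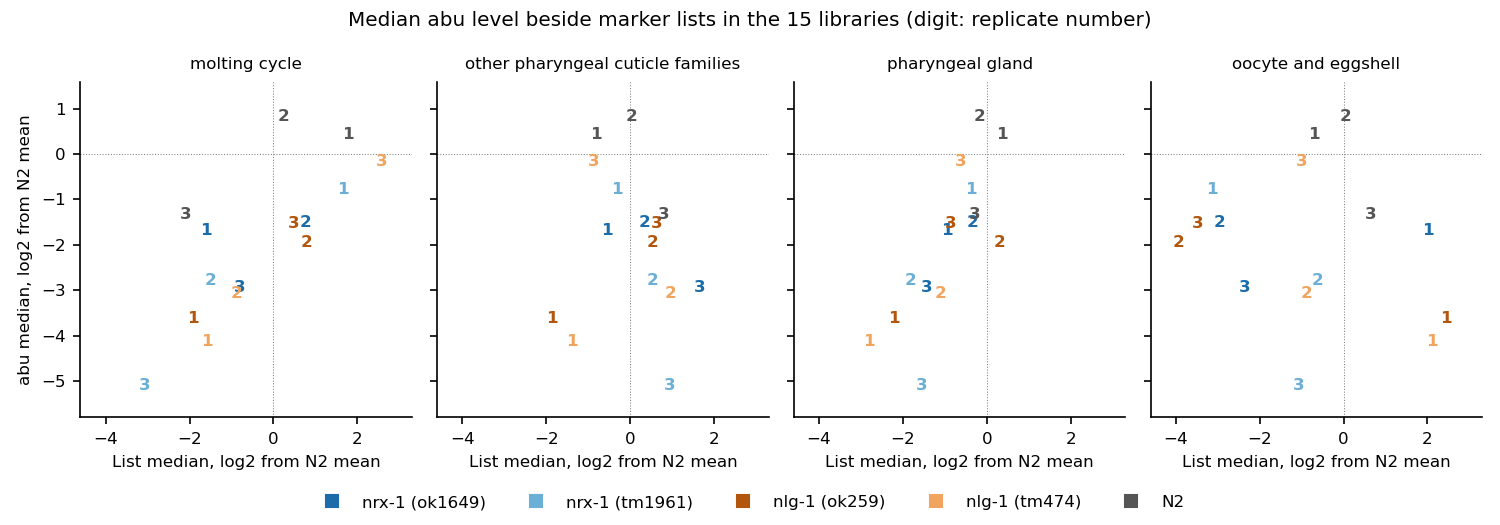
Median *abu* level (vertical axis) beside the median of 4 marker lists (horizontal axes) in the 15 libraries, both as log2 difference from the mean of N2. Digits mark replicates and colours strains. For the molting list, *nlg-1* (tm474) replicate 3 lies at 2.57 with an *abu* median of -0.17, and *nrx-1* (tm1961) replicate 3 at -3.08 with an *abu* median of -5.10.

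A list of other genes of the pharyngeal lining was dominated by the *fipr* family. Of 31 genes listed (*fipr*, *idpa*, *idpb* and *idpc* genes, the chitin synthase gene *chs-2* and the protease gene *nas-6*), 28 had counts, and 3 to 5 of these were at 0 within a strain. They summed to 244 to 677 CPM in *nrx-1* (ok1649), 231 to 447 CPM in *nrx-1* (tm1961), 78.3 to 347 CPM in *nlg-1* (ok259) and 141 to 363 CPM in *nlg-1* (tm474), against 210 to 361 CPM in N2. The 17 or 18 that were tested were *fipr* genes, *chs-2* and *nas-6*, with no *idpa*, *idpb* or *idpc* gene among them. Their median log2 fold changes were 0.47, 0.36, -0.15 and -0.22, and edgeR called 0. In *nrx-1* (ok1649) 1 was lower at an unadjusted p below 0.05, against 5.11% of all genes, and in the other strains 0. Among the libraries of lowest *abu* level the list went both ways. Its median was 0.95 in *nrx-1* (tm1961) replicate 3, where the *abu* median was -5.10, but -1.39 in *nlg-1* (tm474) replicate 1 and -1.88 in *nlg-1* (ok259) replicate 1, where the *abu* medians were -4.14 and -3.63, against -0.82 to 0.79 in N2. Both tested genes outside the *fipr* family had negative fold changes in all 4 strains. *chs-2*, which makes the chitin of the pharyngeal lining, gave -1.90 ± 0.75, -1.45 ± 0.93, -1.15 ± 0.72 and -0.91 ± 0.98, and *nas-6* gave -1.27 ± 0.76, -1.03 ± 1.04, -0.88 ± 1.04 and -1.14 ± 1.11.

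Genes of the pharyngeal glands and muscle were read as markers of the organ. The 7 gland genes (*phat* genes and the gland regulator *hlh-6*) summed to 72.9 to 114 CPM in *nrx-1* (ok1649), 46.4 to 76.3 CPM in *nrx-1* (tm1961), 25.7 to 89.3 CPM in *nlg-1* (ok259) and 21.0 to 74.4 CPM in *nlg-1* (tm474), against 111 to 160 CPM in N2, with 0 genes at 0. The median log2 fold changes were -0.98, -1.19, -1.01 and -1.36, and edgeR called 0. Of the 7 genes 2, 2, 2 and 3 were lower at an unadjusted p below 0.05, against 5.11%, 15.6%, 7.76% and 3.21% of all genes. The 6 muscle and identity genes (*myo-1*, *myo-2*, *tnc-2*, *tni-4*, *ceh-22* and *pha-4*) summed to 220 to 771 CPM in *nrx-1* (ok1649), 144 to 354 CPM in *nrx-1* (tm1961), 240 to 628 CPM in *nlg-1* (ok259) and 194 to 662 CPM in *nlg-1* (tm474), against 433 to 608 CPM in N2, with 0 genes at 0. *myo-2*, a myosin gene of the pharyngeal muscle, gave -0.65 ± 1.09, -2.35 ± 0.74, -1.45 ± 0.96 and -0.66 ± 0.75. *pha-4*, the identity factor of the pharynx, gave -1.36 ± 0.59, -1.43 ± 0.72, -1.92 ± 0.66 and -0.96 ± 0.73, and *tnc-2*, a troponin C gene and the one of the 6 with positive values in every strain, gave 0.73 ± 0.57, 0.88 ± 0.37, 0.58 ± 0.66 and 0.35 ± 0.51. Medians of the 6 were -0.37, -1.38, -0.86 and -0.65, and edgeR called 0. At an unadjusted p below 0.05, 2 of the 6 (*myo-1* and *myo-2*) were lower and 1 (*tnc-2*) higher in *nrx-1* (tm1961), against 15.6% and 18.6% of all genes. In the ok1649, ok259 and tm474 strains 1, 1 and 0 were lower, against 5.11%, 7.76% and 3.21%. In *nrx-1* (tm1961) 3 of the 6 lay wholly below N2, against 21.1% of all genes. The part of gland and muscle levels in the *abu* levels was not tested.

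Genes of the unfolded protein response, after which the *abu* genes are named, were read from 18 genes. They summed to 1409 to 8277 CPM in *nrx-1* (ok1649), 1849 to 3789 CPM in *nrx-1* (tm1961), 2078 to 7668 CPM in *nlg-1* (ok259) and 2501 to 12050 CPM in *nlg-1* (tm474), against 3694 to 8257 CPM in N2. The median log2 fold changes were -0.47, -0.97, -0.38 and 0.08, and edgeR called 0 of 18 in each strain. At an unadjusted p below 0.05, 8 of 18 were lower in *nrx-1* (tm1961), against 15.6% of all genes, and 1 was lower in *nlg-1* (ok259), against 7.76%. In *nrx-1* (ok1649) and *nlg-1* (tm474) 0 were lower, against 5.11% and 3.21% of all genes. *hsp-4*, the chaperone gene used as the reporter of this response, gave log2 fold changes of -0.45 ± 0.72, -0.95 ± 0.34, -0.17 ± 0.51 and 0.12 ± 0.45, and *xbp-1*, its transcription factor gene, gave -0.86 ± 0.64, -1.05 ± 0.35, -0.80 ± 0.53 and -0.51 ± 0.47.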

How the data were processed

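RNA sequencing was performed by the authors on whole young adults (3 libraries for each of 5 strains). Per the labels and methods, reads were demultiplexed with bcl2fastq 2.20, trimmed with Trimmomatic, aligned with STAR to WBcel235 and counted over exons with featureCounts from uniquely mapped reads. The deposited values are these raw counts per gene, not normalized. The strand setting and the annotation release are not given in the sources used here. Library totals were 10152578 to 26211067 counts.

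Each strain was compared with N2 by edgeR 4.0.16 (quasi-likelihood test, TMM, filterByExpr, Benjamini-Hochberg) in R 4.3.3 with limma 3.58.1 over all genes that passed the filter. DESeq2 1.42.0 was an alternative, as were other scalings, no filter, all 15 libraries in one fit, the noncoding share as a covariate, a replicate block and leaving out each library. Log2 levels used a pseudocount of 0.25 CPM. Positions and exon lengths came from Ensembl release 115. The summaries and plots used Python 3.11.15, pandas 2.3.3, numpy 2.4.6 and matplotlib 3.10.9. The scripts were tested on simulated data with 200 changed genes. The simulation gave all genes the same dispersion and no shared deviations between libraries. It therefore checks the code and not the power to find changes in these data.

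The members and gene lists were chosen with earlier results of these data known. Named were every *abu* gene, the 6 *pqn* genes of highest level per kilobase and the 6 of lowest and highest mean log2 fold change, and others as said in the text. The replicates came from separate worm preparations, and no pair of them was a copy (lowest chi-square per degree of freedom 28.3). Deviations of same-numbered *nrx-1* (tm1961) and N2 libraries correlated at 0.691, 0.183 and 0.646, so these numbers were read as pairs, a hint from the data alone. In the other strains at least 1 correlation was below 0.1. No sequences are shown.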

Additional observations from a re-analysis of the deposited data

How the results depend on the processing

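Every count of called members was 0 with edgeR on 3 against 3 libraries. DESeq2 on the same libraries called 9 in the ok1649 strain, 23 in the tm1961 strain and 14 in the ok259 strain. Without the filter on low counts edgeR called 13 in the ok1649 strain, 1 in the ok259 strain and 4 in the tm474 strain. With the replicate block it called 38 in the tm1961 strain and 0 in the others. The numbers of the tm1961 strain were read as pairs with N2 from the data alone, without a label that says so. Leaving out 1 library gave 0 to 40 calls in the ok1649 strain, 0 to 49 in the tm1961 strain, 0 to 37 in the ok259 strain and 0 in the tm474 strain, and the highest counts came without replicate 1 of the mutant strain. The cause of these differences was not tested.

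The *abu* median stayed negative in all alternatives run. Leaving out 1 library it lay between -2.95 and -1.92 in the ok1649 strain, -4.01 and -1.67 in the tm1961 strain, -3.40 and -2.29 in the ok259 strain and -4.15 and -1.30 in the tm474 strain. Under the same alternatives the *pqn* median lay between -1.37 and -0.30, -1.40 and -0.80, -1.15 and -0.37, and -0.45 and -0.09 in these strains. With the noncoding share as a covariate it turned to 0.25 in the tm1961 strain, 0.02 in ok259 and 0.03 in tm474, and was -0.03 in ok1649. With the replicate block the *abu* medians were -2.19, -3.05, -2.94 and -3.05 in the ok1649, tm1961, ok259 and tm474 strains, so that ok259 no longer had the lowest. Of 1478 alternative values of named genes, 129 were called only in the alternative and 58 had the opposite sign, 14 of them values of *abu* genes. Library totals alone moved the median of all genes by 0.13 in the tm1961 strain, 0.15 in the ok259 strain and -0.14 in the tm474 strain, and DESeq2 size factors by 0.12 in the ok259 strain. With 3 libraries a strain, precision was limited by replicates in which the median *abu* gene differed up to 21.3-fold.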
